A study of Mus musculus with 33 samples.

Results

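*Cep295*, *Myo3a* and *Fbxo8* are 3 of the 21565 genes listed for mouse frontal cortex, and they were chosen by their measured levels, which were high in sleep-deprived mice that lacked *Mef2c* in forebrain excitatory neurons. The choice used the 3 libraries of those mice against the rest, so the rise in them is given here as a description with no test, and tests of these 3 genes are kept to comparisons among the other libraries. *Cep295* encodes a centrosomal protein of the inner centriole wall that is needed for newly built centrioles to elongate and to become centrosomes. *Myo3a* encodes a class III myosin, an actin motor that carries its own kinase domain and moves cargo to the tips of actin protrusions, best known from the stereocilia of inner ear hair cells. *Fbxo8* encodes an F-box protein with a Sec7 domain, which joins a substrate-receptor motif of SCF ubiquitin ligases to a domain found in exchange factors for ARF GTPases. These 3 proteins therefore belong to unrelated machineries, and none is a usual marker of a cortical cell type or of neuronal activity.

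RNA came from the frontal cortex of adult male mice on a C57BL/6J background, in 33 libraries. WT mice gave 6 libraries in control sleep (CS, sleep ad libitum), 7 after 6 hr of sleep deprivation (SD) and 7 after 2 hr of recovery sleep (RS) that, per the methods, followed a shorter deprivation. *Mef2c* f/f mice, in which loxP sites flank an exon for the DNA-binding region and which carry no Cre, gave 4 libraries in CS and 3 in SD. The paper states that these mice were backcrossed to the background of the WT mice and that incomplete congenicity could remain. Mef2c-cKO mice carry the same floxed alleles and a *Camk2a*-Cre transgene active in forebrain excitatory neurons, and gave 3 libraries in CS and 3 in SD. Mef2c-cKO and *Mef2c* f/f mice thus share the floxed alleles, and the 6 Mef2c-cKO libraries differ from those of *Mef2c* f/f mice in Cre and recombination together. According to the methods, brain samples of Mef2c-cKO mice held recombined and unrecombined alleles, and some Mef2c-cKO mice also carried a recombined allele in the tail, so the loss was not limited to the intended neurons in every animal.

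Values are CPM (read counts divided by the library's total and set to a common total of 1000000) divided by a median-of-ratios factor over all libraries, called rescaled CPM here, and ± gives the standard deviation. The library totals went from 18935045 to 249046089 reads. Between 1081 and 26906 reads fell on *Cep295* in a library, and between 470 and 10390 on *Fbxo8*. *Myo3a* had 30 to 794 reads in a WT library and 1248 to 15805 in the others. The summed level of 5 excitatory neuron markers (*Slc17a7*, *Neurod6*, *Tbr1*, *Camk2a* and *Nrgn*) was 1126 rescaled CPM or more in every library. *Mef2c* itself checked little, since reads over the whole gene were counted and only 1 exon is deleted. It stood at 1428.52 ± 414 rescaled CPM in Mef2c-cKO CS (n = 3), at 1309 ± 192 in Mef2c-cKO SD (n = 3) and at 1145 ± 67.2 in *Mef2c* f/f CS (n = 4).

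The 3 genes lie on different chromosomes. On GRCm38, *Cep295* (ENSMUSG00000046111.17) spans chromosome 9, 15316915 to 15357788, on the minus strand. *Myo3a* (ENSMUSG00000025716.14) spans chromosome 2, 22227503 to 22618252, on the plus strand. *Fbxo8* (ENSMUSG00000038206.13) spans chromosome 8, 56551090 to 56593939, on the plus strand. The genes were chosen by a rise in the same libraries, so that rise is no evidence of shared regulation. The sequence just upstream of each start is shown as a description. All are from RefSeq's GRCm38.p6 table, 5′ to 3′ on the gene's strand, in lower case, with capitals for a match to a motif searched on both strands. For *Cep295* (chr9:15357789-15358038, minus strand) and *Myo3a* (chr2:22227253-22227502, plus strand) these are the 250 bases before the start, and for *Fbxo8* (chr8:56551048-56551089, plus strand) they are the 42 bases that separate it from its head-to-head neighbour *Cep44*.
Cep295: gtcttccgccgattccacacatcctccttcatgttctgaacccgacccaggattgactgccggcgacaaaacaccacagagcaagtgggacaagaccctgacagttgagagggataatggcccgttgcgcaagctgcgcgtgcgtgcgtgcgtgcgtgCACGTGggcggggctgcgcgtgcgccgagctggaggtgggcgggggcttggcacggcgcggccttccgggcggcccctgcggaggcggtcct
Myo3a: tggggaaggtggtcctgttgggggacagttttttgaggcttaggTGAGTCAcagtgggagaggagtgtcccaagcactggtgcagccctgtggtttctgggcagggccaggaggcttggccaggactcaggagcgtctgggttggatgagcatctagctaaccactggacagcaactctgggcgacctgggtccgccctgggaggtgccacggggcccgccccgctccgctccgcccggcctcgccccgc
Fbxo8: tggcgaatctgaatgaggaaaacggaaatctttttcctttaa
Neither these stretches nor the rest of the 250 bases before *Fbxo8* held CTANNNNTAG, where N is any base. This loose pattern was searched for MEF2 factors, and 3.2% of 32851 promoters held it in a window of the same length. Other forms of MEF2 site were not searched, so nothing is said of their presence. The capitals in *Cep295* mark CACGTG, the E-box of basic helix-loop-helix factors, present in 6.02% of promoters. The capitals in *Myo3a* mark TGANTCA, the AP-1 motif of Fos and Jun proteins, present in 6.75%. The full cyclic AMP response element TGACGTCA, present in 1.55% of promoters, was in none of the 3 windows, while its shorter core TGACG, which the full element contains and 17.8% of promoters held, matched at 2 places further upstream of *Fbxo8*. The *Cep295* stretch is 67.2% G and C with 27 CG pairs, that of *Myo3a* 66% with 11, and the short *Fbxo8* stretch 35.7%. No motif searched was common to the 3 genes. A match here is a match of letters, with no measure of binding.

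In Mef2c-cKO mice the level of *Cep295* stood at 76.0, 69.5 and 66.1 rescaled CPM in the 3 CS libraries and at 280, 258 and 258 in the 3 SD libraries. The lowest SD library was 3.40 times the highest CS library. The means were 70.5 ± 5.02 and 265.6 ± 12.9 (n = 3 each), a 3.77-fold difference (log2 difference 1.91). *Myo3a* read 60.8, 63.6 and 57.3 in the CS libraries and 187, 185 and 152 in the SD libraries. Its groups stood apart as well, with the lowest SD library at 2.39 times the highest CS library and means of 60.6 ± 3.13 and 174 ± 19.6, a 2.88-fold difference (log2 difference 1.51). *Fbxo8* read 34.8, 34.2 and 37.1 in CS and 95.8, 73.4 and 85.9 in SD. The lowest SD library was 1.98 times the highest CS library, and the means of 35.4 ± 1.53 and 85.0 ± 11.2 differed 2.41-fold (log2 difference 1.25).

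Among the 12810 genes tested in this comparison, *Cep295* had the largest rise on the log2(rescaled CPM + 0.5) scale, *Myo3a* was 9th and *Fbxo8* 20th. These places depend on the pseudocount, being 4th, 13th and 29th with 0.1, where *Eps8l3* came first, and 1st, 6th and 15th with 1. Most genes above *Myo3a* and *Fbxo8* were lowly expressed, and among the 7554 genes with a mean of at least 20 in Mef2c-cKO CS the 3 genes were 1st, 2nd and 7th. limma called 3 genes higher (0.0234% of those tested), and every SD library lay above every CS library for 575 genes (4.49%). Since this is the contrast that picked the genes, nothing is read from where they stand in it. Besides these 3 genes, the largest rises were those of *Hist1h4k* (log2 difference 1.79) and *Hist1h4m* (1.72), which encode histone H4, *Ptpn14* (1.70), a tyrosine phosphatase, *Skint6* (1.69), of a skin and thymus immunoglobulin family, and *Eps8l3* (1.64), of an actin-regulating family. Their mean levels in Mef2c-cKO CS were 0.0241 to 12.1 rescaled CPM, well under the levels of *Cep295*, *Myo3a* and *Fbxo8*.

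**Figure D1:**
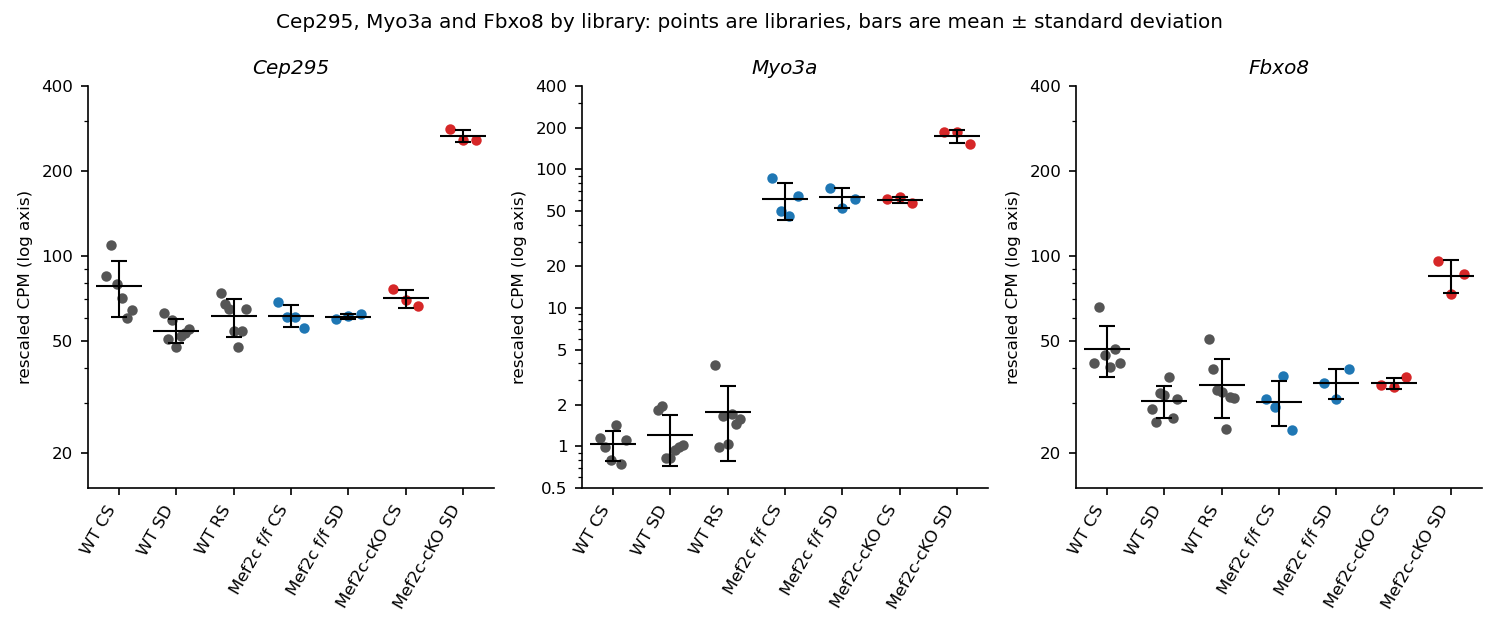
Rescaled CPM of *Cep295*, *Myo3a* and *Fbxo8* (log axes) in each of 33 libraries by group, with the mean and standard deviation as black bars. The 3 Mef2c-cKO SD libraries lie above all others in each panel (from 258, 152 and 73.4), and *Myo3a* stands at 0.740 to 3.88 in WT libraries against 46.0 or more elsewhere.

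**Figure D2:**
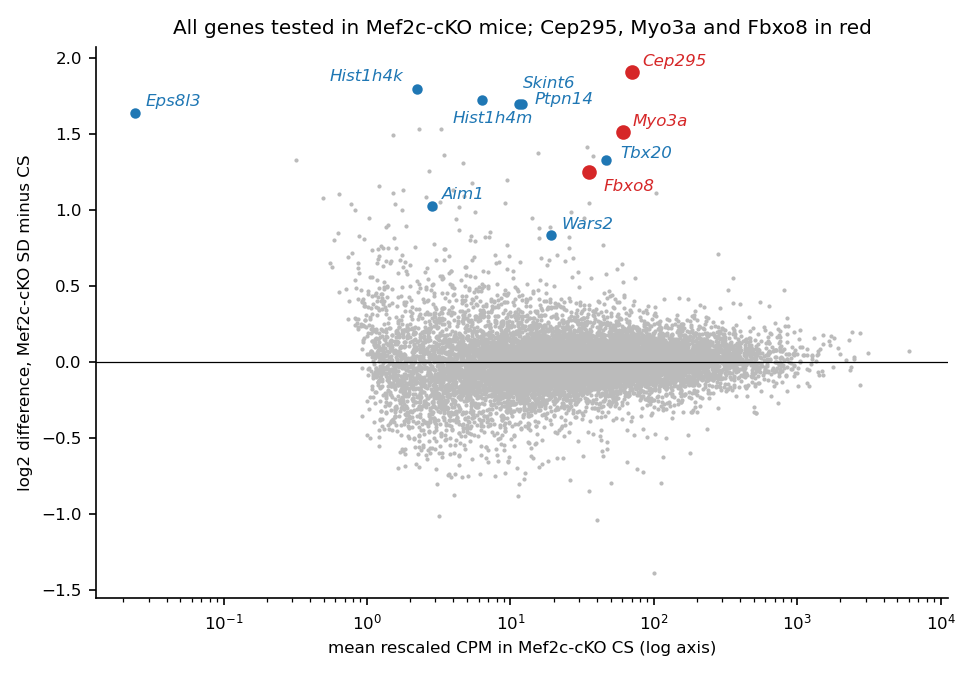
Log2 difference from CS to SD in Mef2c-cKO mice against the mean rescaled CPM in CS (log axis) for 12810 genes. *Cep295* (1.91), *Myo3a* (1.51) and *Fbxo8* (1.25) are in red, and the blue genes are others named in the text.

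Against the 30 libraries of all other groups the genes differed in how far they stood out. For *Cep295* the lowest Mef2c-cKO SD library was 2.36 times the highest of the other 30, and for *Myo3a* 1.75 times. For *Fbxo8* it was 1.11 times, and the library it had to exceed was WT CS replicate 2, at 66.1 rescaled CPM. A step of at least 1.5-fold of this kind was found for 5 genes of 12810, which besides *Cep295* and *Myo3a* were *Ptpn14* (1.92), *Tbx20* (1.84) and *Aim1* (1.77), named after their values were seen. *Tbx20*, a T-box factor of heart development, differed in form, being at 0.0542 rescaled CPM or less in every WT and *Mef2c* f/f library, at 37.2 to 56.7 in Mef2c-cKO CS and at 104 to 128 in Mef2c-cKO SD. *Cep295*, *Myo3a* and *Fbxo8* did not show that shape, since their Mef2c-cKO CS levels lay near those of *Mef2c* f/f mice.

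In SD libraries alone, *Cep295* was 4.36 times as high in Mef2c-cKO as in *Mef2c* f/f mice, at means of 265.6 and 60.9. *Myo3a* was 2.78 times as high, at 174 and 62.8, and *Fbxo8* 2.40 times, at 85.0 and 35.4. No library of one genotype reached those of the other for any of the 3 genes. In CS the ranges of the genotypes overlapped, with ratios of Mef2c-cKO to *Mef2c* f/f means of 1.15 for *Cep295*, 0.983 for *Myo3a* and 1.16 for *Fbxo8*. These ratios use libraries that picked the genes and were not tested.

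Ordered by mean rescaled CPM, the groups ran for *Cep295* from WT SD (54.3) through *Mef2c* f/f SD (60.90), WT RS (60.91), *Mef2c* f/f CS (61.3) and Mef2c-cKO CS (70.5) to WT CS (78.2) and Mef2c-cKO SD (265.6). Each neighbour in this order overlapped with the next except the last pair. For *Fbxo8* the order was *Mef2c* f/f CS (30.4), WT SD (30.6), WT RS (34.8), Mef2c-cKO CS (35.36), *Mef2c* f/f SD (35.39), WT CS (46.8) and Mef2c-cKO SD (85.0). Here WT CS stood clear of the group on each side, and the other neighbours overlapped. On the deposited CPM WT CS (35.6 to 47.4) overlapped with *Mef2c* f/f SD (32.8 to 40.9). For *Myo3a* the groups formed 3 tiers without overlap between them, with the WT groups at 1.04 to 1.76, Mef2c-cKO CS and both *Mef2c* f/f groups at 60.6 to 62.8, and Mef2c-cKO SD at 174.

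Levels can be set against each other per length of the longest transcript, which is 7605 bases for *Cep295*, 5082 for *Myo3a* and 3571 for *Fbxo8*. Per kilobase the 3 genes stood in Mef2c-cKO CS at 9.28 ± 0.660, 11.9 ± 0.616 and 9.90 ± 0.428 rescaled CPM (n = 3 each). In Mef2c-cKO SD they stood at 34.9 ± 1.69, 34.3 ± 3.87 and 23.8 ± 3.15. The gains between those means were thus 25.65, 22.4 and 13.9 rescaled CPM per kilobase. Over the length of all annotated exons together, 16238, 7943 and 5476 bases, the levels per kilobase were 4.34, 7.62 and 6.46 in CS and the gains 12.01, 14.3 and 9.07. The order of *Cep295* and *Myo3a* by gain thus depended on the length used, while *Fbxo8* had the smallest gain on both.

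In *Mef2c* f/f mice, which have the floxed alleles without Cre, SD left no detectable change in any of the 3 genes. *Cep295* read 68.5, 60.6, 60.9 and 55.3 rescaled CPM in CS and 59.7, 60.9 and 62.1 in SD. The SD libraries lay inside the CS range, and the log2 difference was -0.0054 with a 95% interval of -0.191 to 0.180 (limma, adjusted p = 0.979). *Fbxo8* read 31.1, 29.0, 37.5 and 24.0 in CS and 35.3, 31.1 and 39.8 in SD. Its groups overlapped with 1 SD library above all CS libraries, at a log2 difference of 0.23 (interval -0.0918 to 0.543, limma adjusted p = 0.431). *Myo3a* read 86.7, 49.9, 46.0 and 63.8 in CS and 73.9, 52.9 and 61.6 in SD. It was the most variable of the 3 here, with a log2 difference of 0.06 (interval -0.390 to 0.507, limma adjusted p = 0.898). limma called 0.0403% of 12410 genes in this comparison.

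In WT mice *Cep295* and *Fbxo8* were lower after SD. *Fbxo8* had a lowest, median and highest value of 40.4, 43.0 and 66.1 rescaled CPM in the 6 CS libraries and of 25.6, 31.1 and 37.1 in the 7 SD libraries. On rescaled CPM all 7 SD libraries lay below all 6 CS libraries, which held for 10.4% of the 12913 genes tested. The means were 46.8 ± 9.73 and 30.6 ± 3.95, and *Fbxo8* fell by 0.59 on the log2 scale (SE 0.120, limma adjusted p = 0.0025). *Cep295* had a lowest, median and highest value of 60.4, 75.2 and 109 in CS and of 47.6, 53.2 and 62.7 in SD. Here, on the same scale, 6 of the 7 SD libraries lay below all CS libraries and the other fell within their range. The means were 78.2 ± 17.8 and 54.3 ± 5.14, and *Cep295* fell by 0.50 on the log2 scale (SE 0.122, limma adjusted p = 0.00639). limma called 45.1% of the genes tested in this comparison, and 20.5% of all genes tested were called lower.

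The size of the fall in WT mice depended on the scale. On the CPM as deposited the median of all genes rose by 0.30 (log2) from CS to SD. There *Cep295* fell by 0.23, short of the fold threshold (limma adjusted p = 0.0404), while *Fbxo8* kept its call. On that scale the *Fbxo8* groups overlapped, at 35.6 to 47.4 in CS and 27.6 to 36.8 in SD. The *Cep295* groups overlapped as well, at 55.1 to 78.4 and 50.5 to 61.5. Once each library was corrected for GC content and length of transcript the falls were 0.17 for *Cep295* (adjusted p = 0.0994) and 0.24 for *Fbxo8* (adjusted p = 0.0467), neither of them called. The transcripts of these genes are 44.0% and 39.8% G and C.

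After recovery sleep both genes lay between their CS and SD levels in WT mice. *Cep295* had a lowest, median and highest value of 47.5, 64.8 and 73.6 rescaled CPM in the 7 RS libraries, and *Fbxo8* of 24.3, 32.9 and 50.8. These ranges overlapped with both other WT groups, with 3 RS libraries below all CS libraries for *Cep295* and 6 for *Fbxo8*. All 7 lay below in 2.02% of genes. From CS to RS the log2 differences were -0.34 for *Cep295* (interval -0.638 to -0.0498, limma adjusted p = 0.0728) and -0.43 for *Fbxo8* (interval -0.758 to -0.103, limma adjusted p = 0.0558), while 17.5% of 12752 genes were called. From SD to RS the log2 differences were 0.15 for *Cep295* (interval -0.0451 to 0.355) and 0.16 for *Fbxo8* (interval -0.109 to 0.437), both with a limma adjusted p of 0.986, and 0.0232% of 12921 genes were called. Neither step passed the test for either gene.

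The response to SD was then compared between *Mef2c* f/f and WT mice in a single model with an interaction term. These mice also differ in their set of libraries and may differ in genetic background. The part of these in the difference of responses was not tested. For *Fbxo8* the response of *Mef2c* f/f mice exceeded that of WT mice by 0.82 (log2, interval 0.394 to 1.25, limma adjusted p = 0.0233), with a fall in WT and a value of 0.23 that did not pass in *Mef2c* f/f mice. For *Cep295* the difference of responses was 0.49 (interval 0.113 to 0.874, limma adjusted p = 0.0639). *Myo3a* was not compared, since it lay below the filter on low values in WT mice. limma called 15.1% of 13106 genes. With GC content and transcript length corrected for, the *Fbxo8* value was 0.35 (adjusted p = 0.172), and without *Mef2c* f/f CS replicate 2 or 4, or SD replicate 1 or 3, its adjusted p was 0.0526 to 0.0946.

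**Figure D3:**
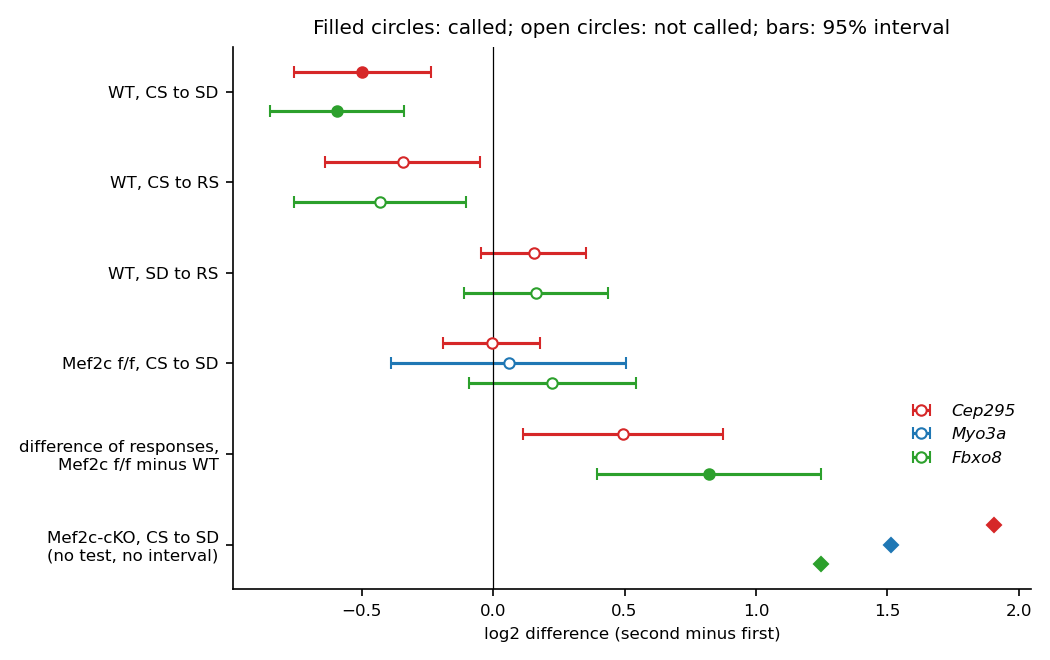
Log2 difference of *Cep295*, *Myo3a* and *Fbxo8* in each comparison in which the gene was tested, with 95% intervals from limma as bars, filled circles where the gene was called, and diamonds without interval for Mef2c-cKO mice, where the genes were picked. WT values from CS to SD lie below 0 (-0.50 and -0.59), *Mef2c* f/f values near 0 (-0.0054 to 0.23) and Mef2c-cKO values at 1.25 to 1.91.

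*Myo3a* had a second contrast between libraries, which followed genotype and not sleep. In WT mice its lowest, median and highest values were 0.740, 1.05 and 1.43 rescaled CPM in CS, 0.821, 0.986 and 1.96 in SD, and 0.992, 1.57 and 3.88 in RS. All 20 WT libraries were far below the 13 others, where the lowest value was 46.0. The mean deposited CPM was 50.5 times as high in *Mef2c* f/f as in WT libraries, 15th of 7512 genes with a mean of at least 20 in *Mef2c* f/f libraries. *Myo3a* did not reach the filter on low values in WT mice, so no change within them was called, and its log2 difference there was 0.12 after SD and 0.48 after RS, each against CS and with overlapping ranges.

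Such steps between WT and the other libraries were found for other genes as well. *Tuba1a*, an abundant alpha-tubulin of neurons, was at 0.109 to 1.16 deposited CPM in WT libraries and at 493.3 to 816 in *Mef2c* f/f libraries. *Pde2a*, a cyclic nucleotide phosphodiesterase, was at 0.415 to 1.14 and at 269 to 411, and *Nnt*, a mitochondrial transhydrogenase gene that is damaged in C57BL/6J mice, at 0 to 0.302 and at 29.5 to 38.0. Of the 4 genes known to differ between C57BL/6 substrains (*Nnt*, *Wdfy1*, *Entpd4* and *Ide*), 3 were tested from CS to SD in WT mice (not *Nnt*), 4 in *Mef2c* f/f mice and 3 in Mef2c-cKO mice (not *Entpd4*). None of those tested was called by limma, edgeR or DESeq2, and 1 (*Wdfy1* in *Mef2c* f/f mice) had an unadjusted limma p under 0.05. These tests compare sleep conditions within a genotype, so they cannot show a difference between genotypes. In all, 9 genes lay below 1 CPM in all 20 WT libraries and at 20 CPM or more in all 7 *Mef2c* f/f libraries, and 141 genes the other way round. The listed genes of a WT library summed to 925580 to 985958 CPM, and those of all other libraries to 1000000. Genotype, any remaining difference of genetic background and the way the 2 sets of libraries were counted cannot be told apart. The level of *Myo3a* is therefore compared within *Mef2c* f/f and Mef2c-cKO mice and its WT level is given as listed. *Cep295* and *Fbxo8* showed no such step, with mean CS levels in *Mef2c* f/f mice of 0.784 and 0.650 times those in WT mice and SD levels of 1.12 and 1.16 times. On rescaled CPM all 4 *Mef2c* f/f CS libraries lay below all 6 WT CS libraries for *Fbxo8*. On the deposited CPM these groups overlapped, at 24.8 to 36.9 in *Mef2c* f/f mice and 35.6 to 47.4 in WT mice.

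**Figure D4:**
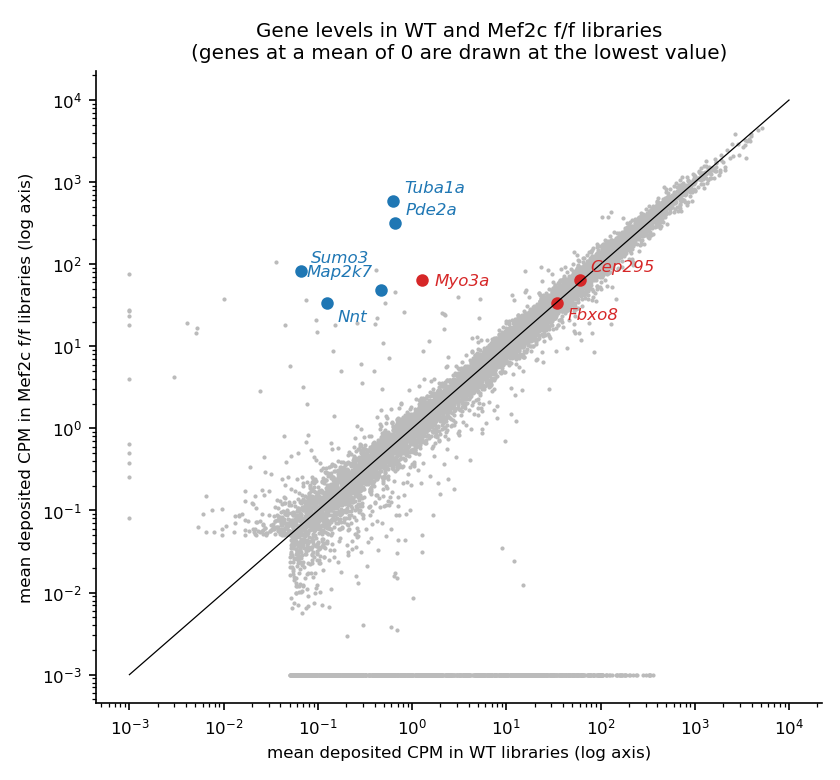
Mean deposited CPM of each gene in 20 WT libraries (horizontal) and 7 *Mef2c* f/f libraries (vertical), on log axes with the line of equal values and with genes at a mean of 0 drawn at the lowest value, which makes the rows of points at the edges. *Cep295* and *Fbxo8* lie on the line, and *Myo3a* lies 50.5-fold above it with *Tuba1a*, *Pde2a*, *Map2k7*, *Nnt* and *Sumo3*.

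The genes beside *Cep295*, *Myo3a* and *Fbxo8* stayed within a narrower range of differences. Since the 3 genes were picked by their rise and their neighbours were not, nothing is read from this contrast. Of the 30 nearest listed genes, 5 on each side of each gene, 25 were tested from CS to SD in Mef2c-cKO mice, and their log2 differences ran from -0.49 to 0.18. None was called by limma, edgeR or DESeq2, and 1 (*Glra3*, a glycine receptor subunit, -0.30) had an unadjusted limma p under 0.05. Calls were rare over all 12810 genes as well, at 0.0234% with limma, 0.0234% with edgeR and 0.195% with DESeq2, and 3.05% had an unadjusted limma p under 0.05. *Cep44*, another centrosomal gene, starts 42 bases from *Fbxo8* on the opposite strand and stood at 15.6 ± 0.660 rescaled CPM in CS and 13.8 ± 1.25 in SD (log2 difference -0.18). *Taf1d*, a subunit of the RNA polymerase I initiation complex, overlaps the end of *Cep295* by 77 bases on the opposite strand and stood at 12.7 ± 1.99 and 12.8 ± 1.78 (0.01). *Gad2*, a GABA-synthesizing enzyme, begins 3952 bases past the end of *Myo3a* on the same strand and stood at 216 ± 22.6 and 242 ± 48.3 (0.15). The antisense gene *Gm16568* overlaps 4773 bases of *Cep295*. Libraries were made with a stranded kit, but whether the counting used strand is not given in the sources used here, so reads of *Cep295* and its antisense partner may not have been told apart.

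**Figure D5:**
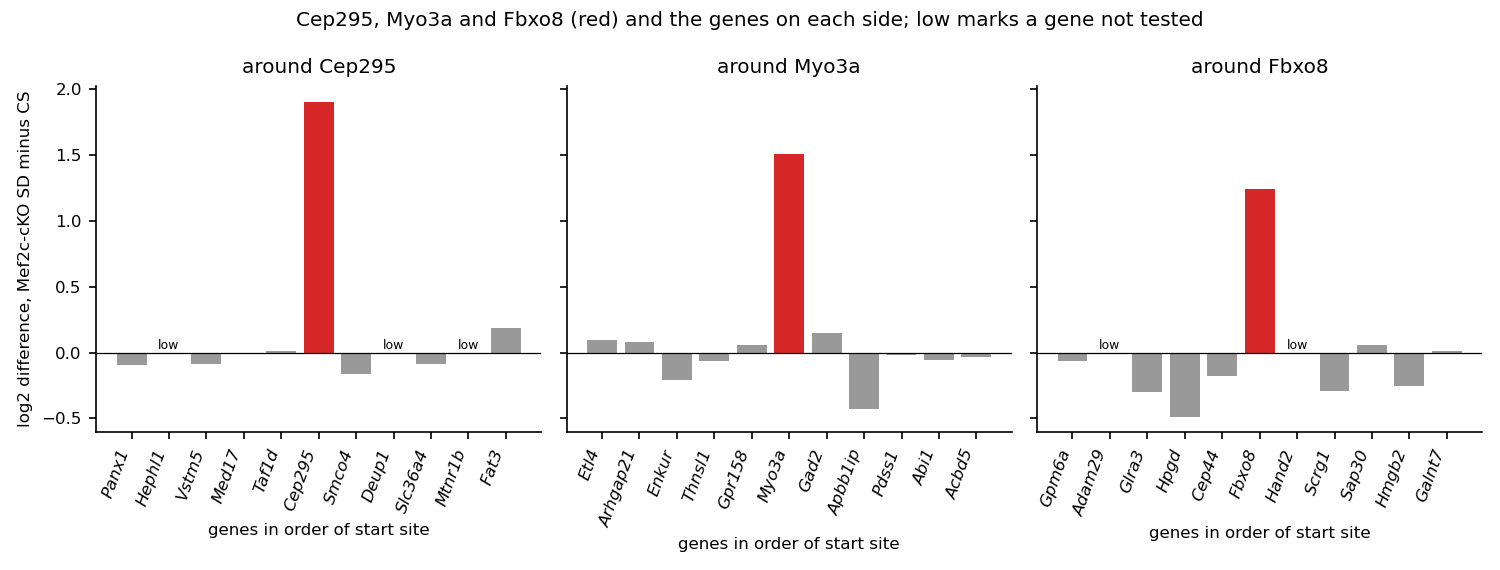
Log2 difference from CS to SD in Mef2c-cKO mice for each gene (red) and the 5 listed genes on each side in order of start site (grey), with genes too low to test marked low. The red bars reach 1.91, 1.51 and 1.25, and the 25 grey bars lie between -0.49 and 0.18.

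The genes most like each of the 3 over all 33 libraries were found by Pearson's r of log2 rescaled CPM among 13451 genes, which share libraries, depth and the step that picked the 3 genes, so r is a description. *Cep295* was most like *Wars2* (r = 0.92), the mitochondrial tryptophanyl-tRNA synthetase, and then *Fbxo8* (0.89), *Ttc29* (0.80), *Pkd1l1* (0.79) and *Timd2* (0.78). The last 3 were low, with mean rescaled CPM of 0.957, 1.30 and 2.98 in Mef2c-cKO CS and 2.05, 2.19 and 5.67 in Mef2c-cKO SD. Their highest group mean in WT and *Mef2c* f/f mice was 0.203, so unlike *Cep295* they were already higher in Mef2c-cKO CS. The Mef2c-cKO ranges of *Timd2* overlapped. *Fbxo8* was likewise most like *Wars2* (0.91), then *Cep295* (0.89), *Asxl3* (0.88), a chromatin protein linked to Polycomb deubiquitination, *Mettl25* (0.87) and *Ube3c* (0.83), a ubiquitin ligase. *Wars2* had values of 18.5, 18.8 and 19.9 rescaled CPM in Mef2c-cKO CS and of 40.5, 33.02 and 30.002 in Mef2c-cKO SD, and its highest value in the other 27 libraries was 27.7. Its groups did not overlap, at a log2 difference of 0.83, smaller than that of *Cep295* or *Fbxo8*. *Asxl3* went from 61.3 ± 4.79 to 88.5 ± 5.52 (log2 difference 0.53).

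The genes most like *Myo3a* were others, all with its step between WT and the other libraries. The most similar genes over all 33 libraries were *Islr2* (0.98), *Igf2* (0.98), *Nupl1* (0.98), *Tuba1a* (0.98) and *Lats2* (0.98), each at a group mean of 0.763 rescaled CPM or less in WT mice and 16.9 or more elsewhere. *Cep295* was 1518th on that list. Without the Mef2c-cKO SD libraries the similarity of *Cep295* and *Fbxo8* fell from 0.89 to 0.75, and other genes came first over the 30 libraries left. For *Cep295* these were *Atrx* (0.92), a chromatin remodeller, *Xrn2* (0.92), a nuclear exonuclease, and *Itga4* (0.92), an integrin. For *Fbxo8* they were *Phf14* (0.95), *Hectd2* (0.95) and *Cask* (0.95), a synaptic scaffold, and for *Myo3a* they were *Borcs8* (0.99), *Sh3bp1* (0.99) and *Pde2a* (0.99). Within groups, deviations of the 33 libraries from their group means had an r of 0.60 between *Cep295* and *Fbxo8*, 0.28 between *Cep295* and *Myo3a* and 0.0232 between *Myo3a* and *Fbxo8*. *Cep295* and *Fbxo8* were both highest of their group in WT CS replicate 2 (109 and 66.1, scaling factor 0.717). The same held in WT RS replicate 1 (73.6 and 50.8, factor 0.821). The part of the scaling in these r values was not tested.

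The other genes of the pathways were taken from lists drawn up with earlier results of these data known. From CS to SD in Mef2c-cKO mice no gene of these lists passed the test. Of 122 such genes tested, limma, edgeR and DESeq2 each called 0, and 3 had an unadjusted limma p under 0.05, beside 391 of all 12810 genes (3.05%) and the few calls over all genes given above. For 32 genes of centriole assembly and elongation the median log2 difference was -0.03, beside -0.0054 over all genes tested, and for 19 unconventional myosins it was 0.00094. *Myo3b*, the other class III myosin, stood at 11.6 ± 3.92 rescaled CPM in CS and 13.3 ± 4.94 in SD. The medians were -0.01 for 8 actin protrusion partners of class III myosins, -0.03 for 34 SCF and F-box genes and 0.03 for 21 ARF GTPases and Sec7 exchange factors. The summed level of the centriole list was 858 to 870.3 in CS and 848 to 887 in SD.

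In *Mef2c* f/f mice limma and edgeR called 0 of 118 pathway genes from CS to SD, DESeq2 called 6, and 22 had an unadjusted limma p under 0.05. Over all 12410 genes of that comparison limma called 0.0403%, edgeR 0.0725% and DESeq2 3.76%, and 17% had an unadjusted limma p under 0.05. In WT mice 48 of 119 were called by limma, a share to be read against the 45.1% of all genes. Over all 12913 genes tested, 2643 (20.5%) were called lower and 3182 higher. Of 31 centriole genes 8 were lower and 1 higher, with *Sclt1* (log2 difference -0.75), *Cep83* (-0.63) and *Ofd1* (-0.59) among those that fell and *Fbf1* (0.48) the one that rose. Of 19 unconventional myosins 7 were lower and 2 higher, including *Myo9a* (-0.68) and *Myo1c* (0.48). Of 32 SCF and F-box genes 5 were lower and 6 higher, with *Fbxo11* at -0.60 and *Fbxo2* at 0.89. Of 20 ARF and Sec7 genes 3 were lower and 7 higher, with *Arfgef3* at -0.61 and *Psd* at 1.13. The median log2 differences of these 4 lists were -0.20, -0.08, 0.01 and 0.17, beside 0.04 over all genes tested. Of 8 actin protrusion partners tested 2 fell and 2 rose.

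Genes of neuronal activity and of the MEF2 family were read in the same libraries. The 5 activity genes (*Fos*, *Arc*, *Nr4a1*, *Egr1* and *Homer1*) summed to 596, 379 and 373 rescaled CPM in the Mef2c-cKO CS libraries and to 573, 980 and 433 in SD, with overlapping ranges and 0 called by limma, edgeR or DESeq2, and with no unadjusted limma p under 0.05. Their log2 differences there ran from 0.38 to 0.85. Over all genes of that comparison 3.05% had an unadjusted limma p under 0.05, and calls were rare, as given above. In WT mice *Arc* (log2 difference 1.18, limma adjusted p = 0.00137) and *Nr4a1* (0.78, limma adjusted p = 0.0116) were higher after SD, and the other 3 were not called. There limma called 45.1% of all genes tested. In *Mef2c* f/f mice limma and edgeR called 0 of the 5, DESeq2 called *Fos*, *Egr1* and *Homer1*, and 4 had an unadjusted limma p under 0.05, at log2 differences of 0.30 to 1.29 over the 5 genes. Over all genes of that comparison DESeq2 called 3.76%, and 17% had an unadjusted limma p under 0.05. *Mef2a* (-0.67) and *Mef2c* (-0.80) were called lower and *Mef2d* (0.35) higher by limma after SD in WT mice. No MEF2 gene was called in *Mef2c* f/f or Mef2c-cKO mice by any of the 3 tools or had an unadjusted limma p under 0.05 there.

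Markers of other cells varied between single Mef2c-cKO libraries. The 5 astrocyte markers summed to 714, 755 and 2337 rescaled CPM in CS and to 847, 962 and 779 in SD, the high value being CS replicate 8, where *Gfap* stood at 1366. The 5 choroid plexus markers summed to 311, 5.25 and 4.74 in CS and to 9.95, 17.5 and 5.21 in SD, the high value being CS replicate 5, where *Ttr* stood at 295. The 5 striatal neuron markers with values summed to 608, 362 and 193 in CS and to 276, 526.2 and 403 in SD. The 4 microglia markers with values summed to 142, 165 and 329 in CS and to 162, 169.7 and 160.8 in SD. Ranges overlapped for both lists. None of the 40 marker genes tested from CS to SD was called by limma, edgeR or DESeq2, and 2 had an unadjusted limma p under 0.05, beside 3.05% of all genes. In WT mice limma called 16 of 40 marker genes, beside 45.1% of all genes. In *Mef2c* f/f mice limma and edgeR called 0 of 41, DESeq2 called 5 (3.76% of all genes) and 14 had an unadjusted limma p under 0.05 (17% of all genes). The part of these markers in the values of the 3 genes was not tested. *Cep295*, *Myo3a* and *Fbxo8* did not stand apart in either library, with 66.1, 57.3 and 37.1 in CS replicate 8 and 76.0, 60.8 and 34.8 in CS replicate 5. With any of the 6 libraries left out in turn, these 2 included, their log2 differences were 1.86 to 1.96, 1.46 to 1.61 and 1.16 to 1.35. The genes were picked on these libraries, so this describes the values and does not test the part of the markers. In bulk tissue a higher level per cell and more cells that express a gene cannot be told apart.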

How the data were processed

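RNA-seq libraries of frontal cortex came from 7 groups of WT, *Mef2c* f/f and Mef2c-cKO mice. The authors used Trimmomatic for trimming, STAR for alignment (mm10) and HTSeq for counting reads that mapped uniquely, and deposited CPM values from edgeR for 21565 genes in 33 libraries. No column belonged to other samples. Dividing each library by its smallest value above 0 gave whole reads for 100% of 711645 values (within 0.01). After division of the deposited CPM by median-of-ratios factors, log2 was taken with a pseudocount of 0.5. A gene was tested if all libraries of either compared group reached a CPM of 1, with limma 3.58.1 (trend, Benjamini-Hochberg over all genes tested, R 4.3.3) on the compared groups alone, where the study's methods used DESeq2, which needs counts. A call needed an adjusted p no higher than 0.05 and a log2 fold change no smaller than 0.3 in size, the latter not for interactions. Alternatives were other pseudocounts, scalings and filters, edgeR 4.0.16 and DESeq2 1.42.0 on recovered reads, a GC and length correction, a fit over all 7 groups, a replicate block and single libraries left out.

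Genes were placed on GRCm38 (GENCODE M21), where 19225 symbols matched directly and 243 by synonym. Promoter motifs were searched in RefSeq sequence. The procedure was tested on simulated data. The genes and lists were chosen with earlier results of these data known. The genes to be named were *Cep295*, *Myo3a*, *Fbxo8*, *Mef2c*, the 5 genes most like each over all libraries and 3 without Mef2c-cKO SD, the 5 next largest rises, genes beside them and genes of the lists. *Tbx20*, *Aim1*, *Tuba1a*, *Pde2a*, *Map2k7* and *Sumo3* were added after their values were seen, as were the examples from the lists. The labels do not say whether the libraries of a group came from separate mice, so p-values measure only the spread between these libraries. One marker gene of the lists is not reported here.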

Additional observations from a re-analysis of the deposited data

Results flagged for a closer look

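A total of 12 groups of 4 to 10 libraries, counting each of the 3 genes apart, were searched for a library far from the rest, and chance alone points to about 1 in 20 such groups. In WT RS replicate 1 *Myo3a* stood at 3.88 rescaled CPM while the other 6 RS libraries lay at 0.992 to 1.71, and its gap to them was 0.750 of the whole range (limit 0.568). This was the deepest library, with 249046089 reads and 794 on *Myo3a*. In WT CS replicate 2 *Fbxo8* stood at 66.1 while the other 5 CS libraries lay at 40.4 to 46.6, a gap of 0.758 of the range (limit 0.625). On the deposited CPM that library read 47.4, and its scaling factor of 0.717 was the lowest of all. It also had the highest *Cep295* of the WT CS libraries (109). Without it the fall of *Fbxo8* from CS to SD was still called.

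The response of *Fbxo8* to SD differed between *Mef2c* f/f and WT mice by 0.82 on the log2 scale. Its CS level was lower in *Mef2c* f/f mice than in WT mice (30.4 ± 5.57, n = 4, and 46.8 ± 9.73, n = 6), and its SD levels were close (35.4 ± 4.31, n = 3, and 30.6 ± 3.95, n = 7).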

How the results depend on the processing

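The rise in Mef2c-cKO mice kept its direction and moved by less than the replicate spread under all 8 alternatives and with any 1 of the 6 libraries left out. The genes were picked on these libraries, so this is a description. In WT mice from CS to SD the calls were lost for *Cep295* on the deposited CPM (-0.23), and with GC content and transcript length corrected for *Cep295* (-0.17) and *Fbxo8* (-0.24). Leaving out 1 library gave -0.57 to -0.40 for *Cep295* and -0.64 to -0.49 for *Fbxo8*, with no call lost. From CS to RS both genes passed with DESeq2 (-0.37 and -0.43) and in one fit over all 7 groups (-0.34 and -0.43, adjusted p = 0.0108 and 0.0102). With 1 library left out *Cep295* ran from -0.41 to -0.24 and passed without RS replicate 1 or CS replicate 5, and *Fbxo8* ran from -0.53 to -0.33 and passed without RS replicate 1 or 2. No value from SD to RS passed under any alternative.

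In *Mef2c* f/f mice *Cep295* changed sign on the deposited CPM (0.0065), with quantile normalization (0.00099) and with 1 library left out (-0.0534 to 0.0487), and *Myo3a* with 1 library left out (-0.0659 to 0.237), none of them near the threshold. For the difference of responses, *Fbxo8* was lost with the GC and length correction (0.35) and ran from 0.71 to 0.92 with 1 library left out. *Cep295* passed with DESeq2 (0.54), in the fit over 7 groups (0.49) and without WT CS replicate 5 or 6 or *Mef2c* f/f CS replicate 1, with a range of 0.39 to 0.56.

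Groups share replicate numbers, but the labels give these no meaning, so same-numbered libraries were not treated as pairs. Their deviations from group means correlated at -0.326 to 0.535 between WT CS and SD and at 0.0508 to 0.647 between WT CS and RS. Differently numbered libraries correlated at -0.521 to 0.529 and at -0.637 to 0.614. With a replicate block the values were -0.57 for *Cep295* (adjusted p = 0.0514) and -0.56 for *Fbxo8* (adjusted p = 0.0601) from WT CS to SD, both lost, -0.36 and -0.41 from CS to RS, both passing, and 0.68 for the *Fbxo8* difference of responses (adjusted p = 0.157), lost. The block was not run in Mef2c-cKO mice.

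The number of genes called varied widely. It was 5825 from WT CS to SD (287 with the replicate block to 6907 on the deposited CPM, 2549 with the GC and length correction), 2232 from CS to RS (45 without a filter to 4709, and 0 to 3740 with 1 library left out), 3 from SD to RS (0 to 54), 5 in *Mef2c* f/f mice (0 to 467, the latter with DESeq2, and 0 to 590 with 1 library left out), 1983 for the difference of responses (0 with the block to 3426, and 23 to 3300 with 1 library left out) and 3 in Mef2c-cKO mice (1 without a filter to 25 with DESeq2). The cause of these differences was not tested. With 3 or 4 libraries a group and fewer reads in *Mef2c* f/f mice, small changes of *Myo3a* and *Fbxo8* could not be detected there, as the width of their intervals shows.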
